A study of Mus musculus with 6 samples.

Results

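Double negative (DN) T cells carry an αβ T cell receptor but neither CD4 nor CD8. Among DN T cells sorted from mouse kidney, the cells described here held a transcript of Pdcd1, which encodes the coinhibitory receptor PD-1, and none of Klrb1c, which encodes the NK cell receptor NK1.1. A cell barcode was a member if it had at least 500 detected genes, at most 20% mitochondrial UMIs, at least 1 UMI summed over Cd3d, Cd3e and Cd3g, at least 1 Pdcd1 UMI and 0 Klrb1c UMIs. A UMI is a molecular identifier that marks 1 captured transcript. There were 639 members among 9309 Cd3 barcodes in the control DN library and 78 among 3951 in the ischemia-reperfusion (IR) DN library, 717 of 13260 in all. The barcodes were chosen on Pdcd1 and Klrb1c, so the levels of those genes are descriptions of the choice. The remaining Cd3 barcodes of the same library, 8670 in control and 3873 in IR, served as the comparison.

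The mice were male wild-type C57BL/6J, aged 7 to 8 weeks. Kidneys were normal (control) or had both renal pedicles clamped for 30 minutes and then reperfused (IR), and live CD45+ TCRβ+ cells were sorted into CD4, CD8 and DN fractions for 10x Chromium 3' sequencing. Each of the 6 groups was 1 library, so no test between conditions or between cells was possible, and every interval below is an exact 95% interval that covers counting error only. The labels do not say how many mice contributed to a library.

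PD-1 is a receptor that T cells place on their surface after antigen receptor signalling. Binding of its ligands PD-L1 and PD-L2 recruits phosphatases to the receptor tail and dampens signalling from the antigen receptor and from CD28. Pdcd1 is transcribed transiently after activation and persistently in chronically stimulated, follicular helper and some tissue-resident T cells, often beside Lag3, Ctla4, Tigit and the transcription factor gene Tox.

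The libraries differed in depth. Members held a median of 9851 UMIs in control and 1486 in IR, against 8488 and 1521 in the other Cd3 barcodes. Summed over members, 6001703 UMIs in control and 99879 in IR remained after mitochondrial genes, ribosomal protein genes and Malat1 were set aside, and levels are given as CPM, the share of these UMIs scaled to 1e6. The matrix headers give Cell Ranger version 5.0.1 for control and 6.0.1 for IR, so condition, depth and software version cannot be told apart. The DN libraries shared 149 (control) and 185 (IR) barcode sequences with the CD4 and CD8 libraries of the same condition, 17 and 1 of them members. Of the control members 5 held a UMI of Cd4, Cd8a or Cd8b1, and of the IR members 0.

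Most members lay close to the Pdcd1 threshold. In control, 356 members had 1 Pdcd1 UMI, 108 had 2 and 175 had 3 or more, up to 21. In IR, 64 members had 1, 10 had 2 and 4 had 3 or more, up to 4. Just outside the rule in control lay 260 barcodes with UMIs of both Pdcd1 and Klrb1c, 84 of them with 1 Klrb1c UMI, and 1 barcode above the mitochondrial limit. Outside it in IR lay 12 barcodes with both transcripts, 14 without a Cd3 UMI and 2 with too few genes.

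The members made up 6.86% (6.36 to 7.40) of Cd3 barcodes in control DN and 1.97% (1.56 to 2.46) in IR DN. After each barcode was thinned to 1000 UMIs and the rule was applied again, the shares were 1.62% (1.36 to 1.91) and 1.40% (1.03 to 1.86), and the intervals overlapped. Thinned to 500 UMIs, they were 1.06% and 1.04%. Thinned instead to 1000 UMIs of the features that enter CPM, which left out 45 Cd3 barcodes in control and 1694 in IR, they were 2.06% (1.78 to 2.38) and 1.19% (0.779 to 1.74), with intervals that did not overlap. Whether the shares of control and IR overlapped at equal depth thus depended on the thinning. The last thinning changed both which UMIs were matched and which barcodes remained, and these cannot be told apart. Ribosomal protein genes, which the last thinning left out, held a median of 15.8% of UMIs in control members and 25.1% in IR members. Within control, the share lay between 4.99% and 5.96% in the 4 shallower of 5 equal depth bins and was 13.0% (11.5 to 14.6) in the deepest bin. Barcodes without any Cd3 UMI served as a background for Pdcd1, but they need not be free of T cells. After thinning to 1000 UMIs, Lyst was in 65.15% of them and 63.1% of other Cd3 barcodes in control, and in 28.4% and 33.3% in IR. Ly6c2 differed more, at 24.2% against 48.5% and 9.6% against 33.5%. A share not above theirs thus does not show that the Pdcd1 UMIs were stray. Of 78 such barcodes in control, at a median of 1639 UMIs, 0 held Pdcd1, which allows a share of up to 3.85% by the limit of 3 counts and 4.62% by the exact interval. Of 423 in IR, at a median of 1196 UMIs, 14 held Pdcd1, or 3.31% (1.82 to 5.49), while 2.28% of the Cd3 barcodes held it. The IR share was thus not above this background, and the results on the 78 IR members below carry that limit. In control the background barcodes were few and far shallower than the members, and after thinning to 1000 UMIs 0 of 66 held Pdcd1 (exact upper limit 5.44%), so the thinned control share was not shown to be above background either.

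**Figure D1:**
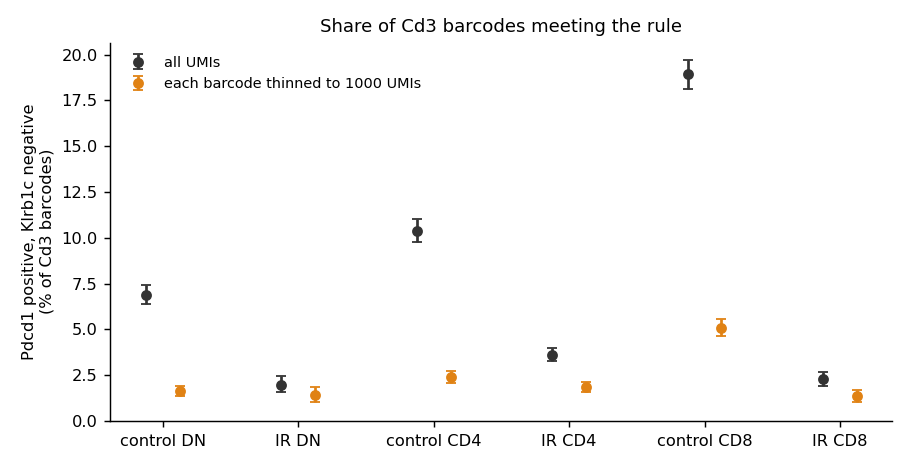
Percentage of Cd3 barcodes with a Pdcd1 UMI and no Klrb1c UMI (y axis) in the 6 libraries (x axis), from all UMIs (black) and after thinning to 1000 UMIs per barcode (orange), with exact 95% intervals. Control and IR DN stand at 6.86% and 1.97% from all UMIs and at 1.62% and 1.40% after thinning.

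The same rule picked 10.4% of Cd3 barcodes from control CD4 cells and 18.9% from control CD8 cells. The thinned shares were 2.38% and 5.07% there, and 1.84% and 1.34% in IR CD4 and IR CD8. Thinned to 1000 UMIs in all, the 1 matching made for these sorts, the control DN share was below those of both other control sorts, with intervals that did not overlap (1.36 to 1.91 against 2.06 to 2.73 and 4.61 to 5.56). Among thinned barcodes without a Cd3 UMI, 1.91% (0.524 to 4.83) in control CD4 and 3.06% (0.636 to 8.69) in control CD8 held Pdcd1, so none of these shares was shown to be above background.

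The following 3 stretches of genome sequence are shown because Pdcd1 chose the cells, Il21 had the largest ratio among the control members, and Ctla4 differed the same way in both DN libraries. Each is the 250 bases upstream of the RefSeq start site in GRCm38.p6, written 5′ to 3′ on the gene's strand. Matches to the NFAT motif TGGAAA on either strand are in capitals. NFAT is the calcium-dependent factor that carries antigen receptor signals to the nucleus. The Pdcd1 stretch is chr1:94052554-94052803 (minus strand), that of Il21 is chr3:37232637-37232886 (minus strand) and that of Ctla4 is chr1:60908775-60909024 (plus strand).
Pdcd1: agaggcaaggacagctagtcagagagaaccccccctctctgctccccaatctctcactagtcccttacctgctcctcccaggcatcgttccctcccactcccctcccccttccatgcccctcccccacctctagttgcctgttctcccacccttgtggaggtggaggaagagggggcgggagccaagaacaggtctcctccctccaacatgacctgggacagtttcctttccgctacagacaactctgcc
Il21: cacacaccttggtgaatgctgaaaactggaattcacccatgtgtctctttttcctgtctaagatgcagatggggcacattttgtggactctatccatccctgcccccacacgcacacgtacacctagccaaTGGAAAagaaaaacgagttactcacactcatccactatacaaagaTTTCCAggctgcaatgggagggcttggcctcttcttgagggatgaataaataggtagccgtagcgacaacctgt
Ctla4: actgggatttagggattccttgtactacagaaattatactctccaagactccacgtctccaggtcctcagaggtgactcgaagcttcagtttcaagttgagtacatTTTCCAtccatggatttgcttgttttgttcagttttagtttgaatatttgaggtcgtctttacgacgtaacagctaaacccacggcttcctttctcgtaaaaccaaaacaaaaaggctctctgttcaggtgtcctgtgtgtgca
Il21 held 2 matches to TGGAAA, Ctla4 1 and Pdcd1 0, where 18.6% of all 32851 windows of this length hold at least 1. The shorter form GGAAA, whose reverse complement TTTCC occurs in the Pdcd1 stretch, was neither counted nor marked. The AP-1 motif TGANTCA (6.75% of windows) and the NR4A response element AAAGGTCA (1.34% of windows), searched on both strands, were in none of these 3 windows. These matches describe letters in the reference and say nothing of binding in these cells.

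The control members stood apart from the other Cd3 barcodes in 2 ways. They were richer in transcripts of Lag3, Ctla4, Cd200, Tox, Tox2, Il21 and most cell cycle genes tested, and poorer in many NK receptor, granule and recirculation transcripts. By the rule, all 4242 Cd3 barcodes with a Klrb1c UMI stood among the others. Against barcodes that also lacked Klrb1c, the NK receptor and granule differences were smaller, with 3 of 17 and 2 of 9 genes lower. A gene was counted as past the fold if its CPM differed at least 2-fold, the higher level was at least 10 CPM, and the members held, or would have held at the level of the others, at least 20 UMIs. Of 8975 genes tested in control, 318 (3.54%) were higher in members and 200 (2.23%) lower. With the 136 members chosen after thinning, the counts were 24 and 18. Against only those other barcodes that also lacked Klrb1c, 277 (3.1%) of 8943 were higher and 141 (1.58%) lower. These percentages are the background for the counts of listed genes.

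The marker genes given for this population behaved unequally. Tigit (chromosome 16, 43648867 to 43664146), a coinhibitory receptor for CD155, stood at 15.3 CPM (12.4 to 18.8) in members and 8.33 in the others, a log2 ratio of 0.88 (0.54 to 1.20), under 2-fold. Without barcodes that held a Mki67 or Top2a UMI it was 1.15 (18.4 against 8.28 CPM). A Tigit UMI was found in 11.1% (8.78 to 13.8) of members and 4.86% (4.41 to 5.33) of the others, and after thinning to 1000 UMIs in 1.10% (0.442 to 2.24) and 0.636% (0.480 to 0.827), with overlapping intervals. Among thinned barcodes without a Cd3 UMI 1 of 66 held Tigit, too few to set a background. Cd101, an immunoglobulin superfamily receptor found on terminally exhausted T cells, was not enriched. It stood at 7.33 CPM (5.33 to 9.84) in members and 11.4 in the others, a log2 ratio of -0.63 (-1.11 to -0.19) whose sign turned (0.75) when members were chosen after thinning. In IR, Tigit rested on 6 member UMIs (60.1 against 31.2 CPM) and Cd101 on 2 (20.02 against 33.9 CPM). Since Cd101 goes against the marker set, the members are called Pdcd1+ Klrb1c- barcodes here.

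Lag3 and Ctla4 set the control members apart within the coinhibitory receptors. Lag3 (chromosome 6, 124904361 to 124911705), an MHC class II binding inhibitory receptor, stood at 28.8 CPM (173 UMIs in 83 members) against 2.12, a log2 ratio of 3.77 (3.43 to 4.10). Ctla4 (chromosome 1, 60887000 to 60915832), which competes with CD28 for its ligands, stood at 206 CPM against 31.1, a log2 ratio of 2.73 (2.62 to 2.83). Cd200, whose product engages an inhibitory receptor on myeloid cells, stood at 13.7 against 1.55 CPM. Of 16 listed receptors 14 were tested, 3 were higher, and 1, the SLAM family receptor gene Cd244a, was lower (8.33 against 18.4 CPM, but a log2 ratio of only -0.21 over barcodes without Klrb1c). The median log2 ratio of the list was 0.40, beside -0.03 over all genes tested. Havcr2, which encodes TIM-3, was under the minimum level at 1.33 against 0.251 CPM. Entpd1, Cd160, Vsir, Cd5, Btla and Cd96 differed less than 2-fold.

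**Figure D2:**
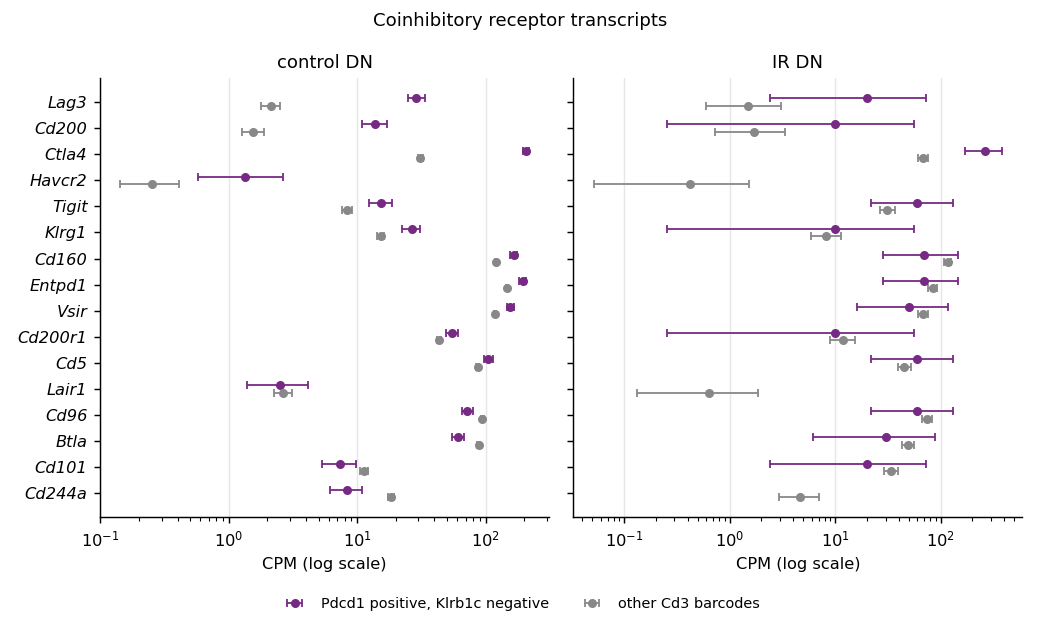
Levels of 16 coinhibitory receptor transcripts in CPM on a log axis, in members (purple) and other Cd3 barcodes (grey) of the control DN (left) and IR DN (right) libraries, with exact 95% Poisson intervals; a gene with 0 UMIs has no point. Lag3, Cd200 and Ctla4 lie apart in control, and Ctla4 (260 against 68.3 CPM) is the receptor past the fold in IR.

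Of the costimulatory receptors, 1 of 10 tested was past the fold in control. Tnfrsf4, which encodes OX40, stood at 42.8 CPM in members and 5.30 in the others, a log2 ratio of 3.01 (2.77 to 3.25). Cd28, Icos, Cd27, Cd40lg and Cd226 lay within 0.4 log2 units of equality. Genes that carry or answer PD-1 signals were close to the other barcodes as well. All 12 were tested, among them the ligand genes Cd274 and Pdcd1lg2, the phosphatase gene Ptpn11 and the kinase genes Lck and Zap70, and 0 were past the fold in either direction (median log2 ratio 0.16). The phosphatase gene Ptpn6 had the highest ratio of them (104 against 56.5 CPM, log2 ratio 0.88).

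Among transcription factor genes known to act on Pdcd1 or in dysfunctional T cells, 5 of 17 tested were higher in control members and 0 lower, with a median log2 ratio of 0.19. Tox2, a relative of Tox found in follicular helper and exhausted T cells, stood at 13.7 CPM (82 UMIs in 46 members) against 0.847, a log2 ratio of 4.01 (3.50 to 4.54). Tox (chromosome 4, 6686353 to 6991557), which maintains exhausted T cells, stood at 751 CPM against 253, a log2 ratio of 1.57 (1.52 to 1.62). Irf4, induced by antigen receptor signalling, stood at 41.8 against 11.7 CPM. Rbpj, the DNA-binding partner of Notch, stood at 728 against 224 CPM, and Maf, a driver of Il10, Il4 and Il21 transcription, at 1171 against 406 CPM. The Nr4a genes differed little, with 56.6 against 46.7 CPM for Nr4a1. Eomes was at 0.833 against 4.8 CPM, below the minimum level, and Bcl6, the follicular helper factor, stood lower in members at 61.3 against 107 CPM, within 2-fold.

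The antigen receptor response list gave a similar split. Egr2 (11.2 against 3.45 CPM), Egr3 (22.8 against 6.76 CPM) and Nab2 (45.1 against 20.5 CPM), which form a feedback circuit on T cell activation, were higher, and the other 9 of 12 were within 2-fold, Cd69 and Myc among them. The immediate early genes ran the other way without reaching the fold in most cases. Of 12 tested, 2 were lower, Jun at 949 against 2357 CPM and Atf3 at 26.3 against 54.2 CPM, with a list median of -0.65. Nab2 (0.97), Jun (-0.87) and Atf3 (-0.14) were under 2-fold with members chosen after thinning, and Atf3 also against barcodes without Klrb1c (-0.84).

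Il21 (chromosome 3, 37222759 to 37232636), a cytokine of follicular helper and NKT cells that acts on B cells and CD8 T cells, had the largest ratio of all genes tested in control. Members held 264 Il21 UMIs in 77 barcodes, at most 25 in 1, and stood at 44.0 CPM against 1.87, a log2 ratio of 4.56 (4.24 to 4.88). An Il21 UMI was found in 12.1% (9.63 to 14.8) of members, 0.669% (0.508 to 0.864) of the others and 0 of 78 barcodes without a Cd3 UMI. After thinning to 1000 UMIs these were 1.72% (0.862 to 3.06), 0.150% and 0 of 66 (upper limit 5.44%). The thinned member share was thus not shown to be above that of the barcodes without Cd3. Il4 stood at 235 against 100.6 CPM, but an Il4 UMI was found in 31.1% (27.6 to 34.9) of members and 28.7% (27.7 to 29.6) of the others. The richest member held 97 of the Il4 UMIs, and with members chosen after thinning the log2 ratio was 0.52 in place of 1.23. Ccl3 passed the fold at 23.3 against 10.9 CPM, but 117 of its 140 UMIs lay in 1 barcode, without which the log2 ratio was -1.51. Ifng, Tnf, Il2, Csf2 and Xcl1 lay within 2-fold, with Ifng at 536 against 467 CPM. Of the 13 cytokine and chemokine genes tested, 3 were higher and 0 lower.

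Genes linked to regulatory T cells were present in part. Nrp1 (chromosome 8, 128358604 to 128503363), a semaphorin and VEGF co-receptor found on thymus-derived regulatory cells and NKT cells, stood at 167 CPM in 308 members against 22.3, a log2 ratio of 2.90 (2.78 to 3.02). After thinning to 1000 UMIs, Nrp1 was in 10.3% (8.08 to 12.95) of members, 1.26% of the others and 5 of 66 barcodes without a Cd3 UMI (7.58%). The member share was thus not shown to be above that of the barcodes without Cd3. Foxp3, the defining factor of regulatory T cells, had 0 UMIs among control and IR members. Il2ra stood lower at 47.5 against 59.9 CPM, and Ikzf2, which encodes Helios, was nearly equal at 412 against 361 CPM. Zbtb16, the factor of innate-like T cells including NKT cells, was higher at 561 against 239 CPM. Trav11, the variable segment of invariant NKT receptors, was below the minimum level at 4.33 against 4.60 CPM.

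Several highly ranked genes are paralogs whose reads can be split by counting. Serpina3f stood at 138 against 21.3 CPM and Serpina3g at 206 against 41.6 CPM, and both encode serine protease inhibitors of a near-identical cluster. The remaining genes at 50 CPM or more with the largest ratios were Rgs16, a brake on G protein signalling (72.7 against 8.83 CPM), Casp4, an inflammatory caspase (72.7 against 11.8 CPM), and the proliferation genes Ube2c, Pclaf, Cenpe and Birc5. Klrb1f, a relative of Klrb1c that was not part of the rule, was the 1 listed NK receptor gene higher than in all others (106 against 29.4 CPM). Slamf6, a homotypic SLAM receptor, stood at 72.3 against 16.6 CPM.

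NK receptor and adaptor genes were lower in control members. Of 17 tested, 10 were lower, with a median log2 ratio of -1.57 against all other Cd3 barcodes. With members chosen after thinning, 8 of these 10 were no longer 2-fold apart, Tyrobp (-0.75), Fcer1g (-0.53) and Klrd1 (-0.09) among them, and Klre1 (0.083) and Klra9 (0.15) changed sign. Against the other barcodes without Klrb1c, 3 were lower, 2 were higher and the median was -0.46. Klrc1, an inhibitory NKG2A gene, stood at 68.2 CPM in members, 302 in all other barcodes and had a log2 ratio of -1.31 over those without Klrb1c. Fcer1g, a signalling adaptor, stood at 58.3 against 202 CPM, but its log2 ratio over barcodes without Klrb1c was -0.35. Tyrobp, which encodes DAP12, stood at 4.50 against 53.3 CPM (log2 ratios of -3.57 and -1.51). Ncr1 had 14 UMIs in 4 members and changed sign, from -2.80 to 0.20, between the comparisons. The cytotoxic granule list followed, with 5 of 9 tested genes lower (Gzma, Gzmb, Prf1, Fasl and Lyst) against all others and 2 against barcodes without Klrb1c. Prf1, the perforin gene, stood at 18.5 against 57.8 CPM (log2 ratios of -1.65 and -1.08), and Gzmb at 22.2 against 74.4 CPM (-1.75 and -0.82). With members chosen after thinning, Gzmb (-0.60) and Fasl (-0.16) were under 2-fold. Of the 92 Gzma UMIs in members, 45 lay in 1 barcode.

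Recirculation genes were lower as well, less so against barcodes without Klrb1c. Klf2 (chromosome 8, 72319033 to 72321656), which drives exit from tissue, stood at 62.8 CPM in members and 289 in the others, a log2 ratio of -2.20 (-2.35 to -2.05), and -1.70 over barcodes without Klrb1c. Its target S1pr1, the egress receptor, stood at 14 against 34.3 CPM (log2 ratios of -0.96 over barcodes without Klrb1c and -0.72 with members chosen after thinning), and Il7r, the interleukin 7 receptor, at 41.8 against 152 CPM. Of 9 genes tested in this list 5 were lower and 1, Slamf6, higher. Against barcodes without Klrb1c 3 were lower, Klf2 and Il7r among them. Tissue residency genes did not follow in the opposite direction: of 10 tested 0 were past the fold, with Cxcr6 at 784 against 1154 CPM and Rgs1 at 768 against 742 CPM. Of 14 cytokine receptor genes tested 5 were lower, among them both interleukin 18 receptor chains, Il18r1 at 76.0 against 281 CPM and Il18rap at 55.0 against 176 CPM (log2 ratios of -0.69 and -0.64 with members chosen after thinning), and Ifngr1 at 517 against 1318 CPM. Gpr183, an oxysterol receptor that positions lymphocytes, Emb, Gcnt2 and Klf3 were the other lower genes with the largest ratios at 50 CPM or more.

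**Figure D3:**
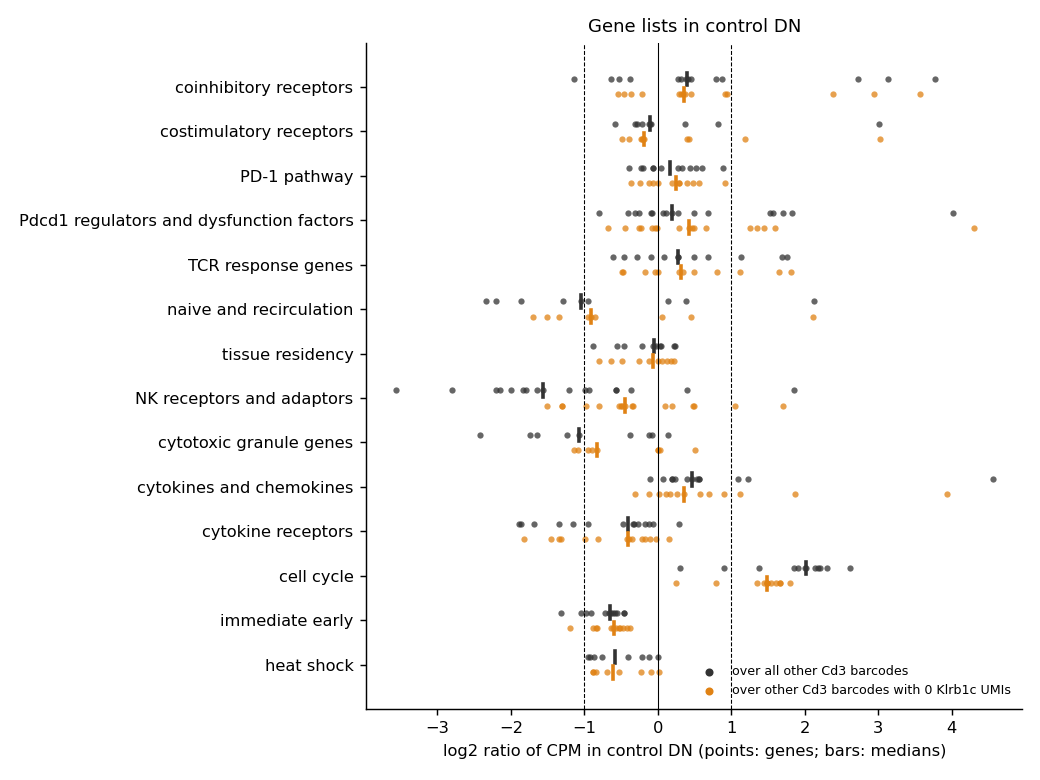
Log2 ratio of CPM in control DN members (x axis) for each tested gene of 14 lists (points) with the list median (bar), over all other Cd3 barcodes (black) and over those without a Klrb1c UMI (orange); dashed lines mark 2-fold. The NK receptor median moves from -1.57 to -0.46 between the comparisons, whereas the naive and recirculation median moves from -1.04 to -0.91.

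Genes that the submitters' study linked to DN cells were tested as a list that was chosen on these libraries. Of the 9 measured members besides Klrb1c, 5 were lower in control Pdcd1+ Klrb1c- barcodes and 0 higher. Kcnq5, a potassium channel gene, stood at 927 against 2423 CPM, Lyst, a lysosome trafficking gene, at 660 against 1557 CPM, and Klre1, an NK receptor gene, at 72.8 against 227 CPM. Against barcodes without Klrb1c 3 were lower (Kcnq5, Lyst and Klrc1) and the list median went from -1.24 to -0.48. Klre1 had a log2 ratio of -0.48 there and of 0.083 with members chosen after thinning. Xcl1, a chemokine for cross-presenting dendritic cells, Fgl2 and Trgv2 were within 2-fold and on the higher side, with Trgv2 at 305 against 181 CPM.

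Proliferation transcripts were more frequent in control members. A UMI of Mki67 or Top2a was found in 41.9% (38.1 to 45.9) of members and 12.9% (12.2 to 13.6) of the others, and after thinning in 10.95% (8.64 to 13.6) and 2.72% (2.39 to 3.08). Of 66 thinned control barcodes without a Cd3 UMI, 3 held Mki67 and 3 held Top2a (4.55% each), beside 6.26% and 6.57% of members, so the thinned shares of members were not shown to be above this background. Of 12 cell cycle genes tested 10 were higher, with Top2a, the mitotic topoisomerase gene, at 213 against 53.0 CPM. With members chosen after thinning, 6 of these 10 were under 2-fold, Birc5 (0.97), Cdk1 (0.78) and Mcm5 (0.40) among them, and Ube2c changed sign (-0.20). Members with such a UMI had a median of 13062 UMIs and members without one 8773. With all Mki67 or Top2a positive barcodes left out of both sides, an alternative chosen after the data were seen, 178 genes were higher and 125 lower. The log2 ratios there were 4.89 for Il21, 4.41 for Lag3, 2.91 for Ctla4, 3.11 for Nrp1, 1.64 for Tox and -1.90 for Klf2. Of 78 named genes past the fold that could be compared, 56 were still past it and 22 were not. Besides cell cycle genes the latter held Lyst (-0.83), Ifngr1 (-0.87), Jun (-0.94), Fasl (-0.64) and Atf3 (-0.61).

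Control barcodes were also described by their number of Pdcd1 UMIs. These steps are cut from the same counts as the rule and are no separate support for it. From barcodes with 0 Pdcd1 and 0 Klrb1c UMIs through members with 1, 2 and 3 or more Pdcd1 UMIs, Il21 stood at 2.88, 15.3, 45.7 and 87.8 CPM. Lag3 stood at 2.43, 14, 32.6 and 49.9 CPM, and Ctla4 at 39.3, 152, 178 and 305 CPM. Tox stood at 249, 576, 713 and 1047 CPM along the same steps. Lyst ran downward from 1457 to 836, 633 and 401 CPM, and Klrc1 from 169 to 83.6, 67.1 and 44.7 CPM. Klf2 stood at 204, 80.9, 33.6 and 50.9 CPM, with the last 2 close to each other. Median depth also grew, from 8209 to 9198, 9607 and 11747 UMIs, and the share with a Mki67 or Top2a UMI grew from 16.4% to 33.99%, 48.2% and 54.3%. Their part in these steps was not tested.

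**Figure D4:**
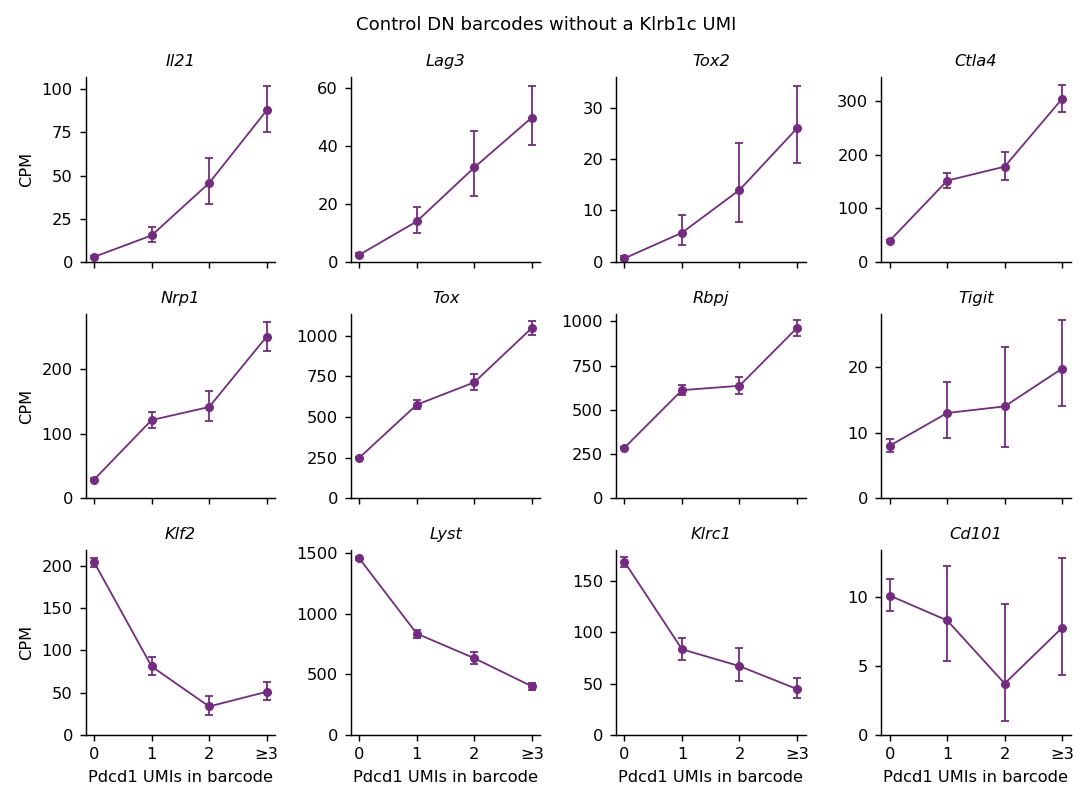
CPM (y axes, each from 0) of 12 genes in control DN barcodes without a Klrb1c UMI, by the number of Pdcd1 UMIs in the barcode (x axes), with exact 95% Poisson intervals. Il21, Lag3, Tox2, Ctla4, Nrp1, Tox and Rbpj stand highest at 3 or more Pdcd1 UMIs, Lyst and Klrc1 lowest, and the Cd101 intervals overlap.

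The differences of Ctla4, Tox and Klf2 were present at every depth of the control library. Within the 5 depth bins the log2 ratio of Ctla4 lay between 2.28 and 3.13, that of Tox between 1.13 and 2.08, and that of Klf2 between -2.71 and -1.39. Tigit was uneven, between -0.12 and 1.99. The 260 control barcodes with both Pdcd1 and Klrb1c lay between the groups for several genes. Ctla4 stood at 77.6 CPM there, against 206 in members and 18.3 in barcodes with Klrb1c alone, and Tox at 467 CPM, against 751 and 237. Il21 stood at 5.89 CPM there, against 44.0 and 0.461. Klf2, at 303 CPM, was nearer to the barcodes with Klrb1c alone (372 CPM) than to members (62.8 CPM).

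In IR the 78 members held few UMIs, and 20 UMIs corresponded to 200.2 CPM. In all 1085 genes were tested, with 31 (2.86%) higher and 17 (1.57%) lower in members, and 31 (2.85%) and 16 (1.47%) of 1086 against barcodes without Klrb1c. Under TMM scaling, which shifted the median of all genes by -0.20 on the log2 scale, 20 were higher and 32 lower. Ctla4 stood at 260 CPM (26 UMIs in 14 members) against 68.3, a log2 ratio of 1.93 (1.29 to 2.51). Tox stood at 220 CPM (22 UMIs in 12 members) against 84.2, a log2 ratio of 1.39 (0.70 to 2.01) that turned to -0.38 when members were chosen after thinning. Itgb1, the β1 integrin chain, stood at 901 against 343 CPM. Ikzf2 stood at 591 against 291 CPM, a log2 ratio of 1.02 that was 0.69 without its richest barcode, 0.81 with TMM scaling and 0.45 with members chosen after thinning. Nrp1 had 12 UMIs in 9 members, below the minimum, and stood at 120 CPM (62.1 to 209.9) against 12.3. Lag3, Il21 and Tox2 had 2, 3 and 1 UMIs, too few for a statement.

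Lower genes in IR included Ifng, the effector cytokine gene, at 381 against 1013 CPM (38 UMIs in 27 members), and its signalling brake Socs1 at 120 against 398 CPM. Gata3, Ly6c2, Gsk3b and Cetn3 were lower as well, with Gata3 at 120 against 303 CPM. All 4 were under 2-fold with at least 2 Pdcd1 UMIs (Gata3 -0.49, Ly6c2 -0.93, Gsk3b -0.43 and Cetn3 -0.38), and the last 3 also with members chosen after thinning. Rcbtb2 rested on 2 member UMIs, at 20.02 against 202 CPM. Some high ratios came from single barcodes. All 54 Csf2 UMIs lay in 1 member, as did 32 of 42 Kidins220 UMIs and 63 of 93 Hist1h2ap UMIs. Without that barcode the Kidins220 log2 ratio was 0.20 in place of 2.27. A Mki67 or Top2a UMI was found in 7 of the 78 IR members (8.97%, 3.69 to 17.6) and in 1.55% (1.18 to 1.99) of the others.

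Of 1077 genes tested in both DN libraries, 20 were higher and 23 lower in control members, and 31 and 17 in IR members. Past the fold in opposite directions were 0, which says little with so few past it. In both libraries 13 were past it upward and 6 downward. The higher genes were Ctla4, Tox, Itgb1, Ifi27l2a, an interferon-inducible gene, Serpina3f, Serpina3g, Rabgap1l, Ptms, Atpif1 and the proliferation genes Top2a, Tuba1b, Hist1h2ae and Hist1h2ap. The lower ones were Klf2, Fcer1g, Lyst, Socs2, Rcbtb2 and the noncoding Gm2682. In control, Lyst, Socs2, Rcbtb2 and Gm2682 were under 2-fold without barcodes that held proliferation transcripts, and Fcer1g (-0.35) was so against barcodes without Klrb1c. In IR, Gm2682 (-0.76), Lyst (-0.95) and Atpif1 (0.79) were under 2-fold without the deepest 5% of barcodes, and Ifi27l2a (0.88), Rabgap1l (0.96) and Tuba1b (0.83) were under 2-fold with TMM scaling. Tox and Socs2 changed sign in IR when members were chosen after thinning, and Tuba1b, Hist1h2ae and Hist1h2ap changed sign in at least 1 library when barcodes with proliferation transcripts were left out. Ifi27l2a stood at 1301 against 405 CPM in control and 1031 against 486 CPM in IR. Itgb1 had log2 ratios of 1.52 (1.5 to 1.55) and 1.39 (1.07 to 1.70). Klf2 stood at 401 against 844 CPM in IR, a log2 ratio of -1.08 (-1.56 to -0.63). Ifng and Il7r were not alike in the libraries: Ifng had log2 ratios of 0.20 in control and -1.41 in IR, and Il7r of -1.86 and 0.11. No test of that difference between the libraries was possible.

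**Figure D5:**
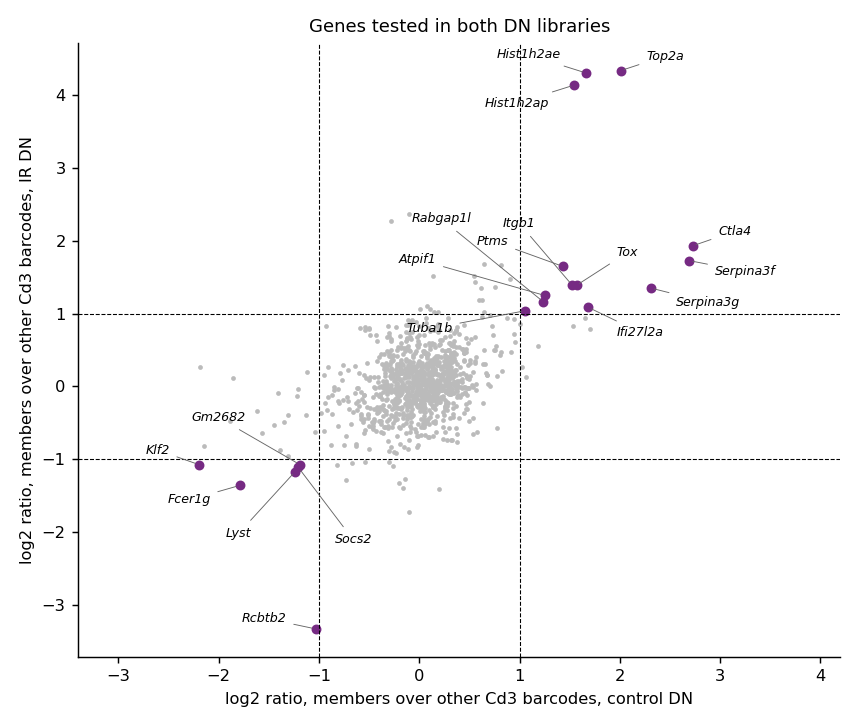
Log2 ratio of members over other Cd3 barcodes in control DN (x axis) and IR DN (y axis) for the 1077 genes tested in both (grey), with dashed lines at 2-fold and the 13 higher and 6 lower genes past both in purple. No gene lies past the lines in opposite corners.

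Barcodes picked by the same rule in the CD4 and CD8 libraries shared some of these features. The log2 ratio of Ctla4 was 2.73 in control DN, 1.65 in control CD4 and 1.37 in control CD8, and that of Nrp1 was 2.90, 1.62 and 0.94. For Itgb1 it was 1.52, 0.75 and 0.33, for Ifi27l2a 1.69, 0.80 and 0.70, and for Tox 1.57, 1.44 and 1.10. In the same order, Lag3 had ratios of 3.77, 3.46 and 1.99, Klf2 of -2.20, -0.94 and -1.34, and Cd101 of -0.63, 0.61 and 0.24. As levels, members stood at 1171 CPM of Maf in control DN, 640 in control CD4 and 115 in control CD8, and at 138, 56.6 and 20.9 CPM of Serpina3f. Foxp3 stood at 34.4 CPM in control CD4 members and had 0 UMIs in control CD8 and control DN members. Each sort was 1 library, so these differences were not tested.

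Summed markers of other cell types were lower in members for some lists and higher for others. Summed over the list, NK cell markers stood at 28.3 CPM in control members against 125 in the others and at 50.1 against 203 CPM in IR. The myeloid genes Csf1r, Itgam, S100a8 and S100a9 were at 0 in control members. Myeloid markers summed to 51.2 against 29.7 CPM, of which Cd74 gave 40.8 CPM with 42 of its 245 UMIs in 1 barcode. Pecam1, which T cells also express, gave 116 CPM of the endothelial sum of 117 against 42.9 CPM, with Kdr and Cdh5 at 0. Erythroid and tubule markers summed to 1.33 and 3.67 CPM in control and to 0 in IR. B cell markers summed to 116 against 172 CPM in control and 140 against 115 CPM in IR.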

How the data were processed

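The authors deposited one filtered 10x matrix of raw UMI counts per library, made by them with Cell Ranger (5.0.1 in the control headers, 6.0.1 in the IR headers). Groups were taken from the sample labels. The members and the gene lists were chosen with earlier results of these data known. From the deposited counts, UMIs were summed over members and over other Cd3 barcodes of the same library and divided by their total after 100 of the 32285 features (mitochondrial, ribosomal protein and Malat1) had been taken out. A sum of 0 was set to 3 counts in ratios. Intervals are exact 95% Poisson, Clopper-Pearson or conditional binomial intervals. Thinning drew 1000 UMIs per barcode without replacement, which left out 22 Cd3 barcodes in control and 313 in IR. No doublet caller was run, and an alternative left out the deepest 5% of barcodes. Named were Pdcd1, Tigit and Cd101, listed genes past the fold in either library, the 10 largest ratios in each direction at 50 CPM or more, and genes past the fold in both libraries; of these 96 genes and the lists, those that best describe a group are printed. Some listed genes are counted but not reported here. Genes named beyond that rule to show what did not differ, the Foxp3, Havcr2 and Trav11 values among them, were picked from the lists. Gene positions are from GENCODE M21 (GRCm38) and upstream sequence from RefSeq (GRCm38.p6). The code was tested on simulated counts. Python 3.11.15, scipy 1.17.1 and edgeR 4.0.16 (TMM scaling only) were used.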

Additional observations from a re-analysis of the deposited data

Results flagged for a closer look

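In IR DN, barcodes that failed the Cd3 criterion and entered no comparison held Pdcd1 UMIs at a share of 3.31% (14 of 423, 1.82 to 5.49). This was above the 0.709% that a count of 0 among 423 barcodes allows by the limit of 3 counts. In control DN, 0 of 78 such barcodes held one, which allows up to 3.85% by the limit of 3 counts (4.62% by the exact interval), so the libraries were not shown to differ. After thinning to 1000 UMIs the IR share was 2.24% (7 of 313).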

How the results depend on the processing

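No paired analysis was possible because each group has 1 library. The cause of the changes below was not tested. Counts with members chosen after thinning are over fewer tested genes, since 20 UMIs took a higher CPM there. The share of members in control was 6.30% without the deepest 5% of barcodes, 3.16% with at least 2 Pdcd1 UMIs, 4.68% without Mki67 or Top2a positive barcodes, and 1.62%, 1.06% and 2.06% after thinning to 1000 UMIs, 500 UMIs and 1000 UMIs of kept features. The last was the one thinning after which the control and IR intervals did not overlap. In IR it was 0.360% with at least 2 Pdcd1 UMIs and 1.40%, 1.04% and 1.19% after the same thinnings. The 318 higher and 200 lower genes of control became 178 and 125 without proliferation positive barcodes, 24 and 18 with members chosen after thinning, 2090 and 1136 with no minimum level, and 98 and 75 at a minimum of 50 CPM, and 357 were lower with at least 2 Pdcd1 UMIs. The 31 higher and 17 lower genes of IR became 14 and 5 with at least 2 Pdcd1 UMIs, 20 and 32 under TMM scaling, 6 and 11 with members chosen after thinning, and 1919 and 637 with no minimum level, and 19 were higher without the deepest 5%. Log2 ratios of genes past the fold changed sign as follows, and that of Cd101, which was not past it, changed to 0.75 in control with members chosen after thinning. With that choice, control gave 0.083 for Klre1, 0.15 for Klra9, -0.073 for Ccl3, -0.20 for Ube2c and -0.31 for Hist1h2ae, and IR gave -0.38 for Tox and 0.029 for Socs2. Against barcodes without Klrb1c, Ncr1 gave 0.20 in control. Without the deepest 5%, Hist1h2ap gave -0.29 in control, and in IR Csf2 gave -0.95, Hist1h2ap -0.61 and Tuba1b -0.69. Alternatives chosen after seeing the data were the removal of Mki67 or Top2a positive barcodes and of the member barcode richest in each gene. The first gave -0.34 for Hist1h2ae and -0.53 for Hist1h2ap in control, and -1.87 for Hist1h2ap and -0.95 for Tuba1b in IR. The second gave -1.51 for Ccl3 in control, and -1.80 for Csf2 and -0.17 for Tuba1b in IR. Of 80 named genes past the fold in control, 61 were still past it against barcodes without Klrb1c, and of 75 that could be compared, 43 with members chosen after thinning. Of 78, 56 were past it without proliferation positive barcodes. In IR these were 31 and 23 of 32, and 20 of 32 without the deepest 5% of barcodes and 20 of 27 with at least 2 Pdcd1 UMIs. Depth limits the IR library, where a gene needed 200.2 CPM to reach 20 UMIs in members.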

Other observations

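Some genes outside the lists were also far apart in control members and were picked after their values were seen. Ccr8, a chemokine receptor of skin-homing and regulatory T cells, stood at 37.5 CPM (225 UMIs in 110 members) against 4.91, a log2 ratio of 2.93 (2.68 to 3.18). Vdr, the vitamin D receptor gene, stood at 27.8 against 3.14 CPM, and Ebi3, a subunit of interleukin 27 and 35, at 12.2 against 1.27 CPM. Arnt2, a bHLH-PAS factor gene, stood at 43.0 CPM in 145 members against 4.96, with a log2 ratio of 2.48 over barcodes without Klrb1c. In IR, the integrin genes Itga4 (28 UMIs in 19 members, 280 against 100.7 CPM) and Itgav (20 UMIs in 12 members, 200.2 against 69.8 CPM) were past the fold, and in control they lay under it, with log2 ratios of 0.90 and 0.54. That difference between the libraries was not tested.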
